A study of Arabidopsis thaliana with 8 samples.

Results

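The 10 genes described here belong to the aliphatic branch of glucosinolate synthesis in Arabidopsis thaliana: MAM1 (AT5G23010), MAM3 (AT5G23020), BCAT4 (AT3G19710), BAT5 (AT4G12030), CYP79F1 (AT1G16410), CYP79F2 (AT1G16400), CYP83A1 (AT4G13770), MYB28 (AT5G61420), MYB29 (AT5G07690) and MYB76 (AT5G07700). They were chosen by function, with earlier results of these data known, and matched by locus code. All 10 were found among the 29920 loci of the table, each with 1 entry. Their levels were compared between the root meristemless1 (rml1) mutant and the Columbia-0 wild type in shoots and roots of 7-day-old seedlings all grown for that time on vertical plates of PANG2 medium with sucrose. The mutation lies in GSH1, which encodes the first enzyme of glutathione synthesis, and the mutant is known for a primary root that arrests early. The 8 tiling arrays comprised 3 of rml1 shoots (pools of 61, 65 and 108 shoots), 3 of wild type shoots (30 shoots each), 1 of rml1 roots (234 roots) and 1 of wild type roots (90 roots). The labels call the shoot samples biological replicates, and every sample is a pool of many seedlings. The labels give no ecotype for the mutant.

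Glucosinolates are sulfur-rich defence compounds of the cabbage family. The aliphatic ones are built from methionine in 3 stages: the side chain is lengthened in a cycle that resembles leucine synthesis, the core structure is formed by cytochrome P450 enzymes and the enzymes that follow them, and the side chain is then modified. Glutathione donates the reduced sulfur that enters the core structure. The R2R3 MYB factors MYB28, MYB29 and MYB76 activate the genes of this branch, while MYB34, MYB51 and MYB122 act on the branch that starts from tryptophan.

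Levels are given in log2 units of the RMA scale, on which a difference of 1 is a 2-fold change. A level of 1 gene is not comparable with that of another, because each is read by its own probes, so genes are compared only by their differences between groups. Array medians lay between 3.84 and 3.98, and the lower quartiles of the arrays lay between 2.14 and 2.37. GSH1 itself stood at 8.80, 8.61 and 8.96 in rml1 shoots and at 8.45, 8.19 and 8.11 in wild type shoots. The organ labels were checked on markers: the photosynthesis genes RBCS1A and GAPA1, the only 2 of 5 listed that were measured, had medians between 12.76 and 12.79 on the rml1 shoot arrays, between 12.82 and 12.85 on the wild type shoot arrays, and of 9.64 in the rml1 root and 8.32 in the wild type root.

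In shoots, 9 of the 10 aliphatic genes fell in rml1 and none rose, with limma's adjusted p under 0.05 over all loci. Of all 29920 loci, 10.6% were lower in rml1 by the same test, 13.3% were higher and 23.9% were called in either direction. The median difference of the 10 genes was -2.63 log2 units (rml1 minus wild type), against -0.03 over all loci. Each of the 9 called genes fell by at least 1 log2 unit, as did 2.17% of all loci. Even the gene that did not pass, MYB76, had its 3 rml1 values below its 3 wild type values, so that the groups did not overlap for any of the 10 genes, as for 20.2% of all loci in that direction and 42.1% in either. At an unadjusted p under 0.05, all 10 genes were lower, as were 16.9% of all loci.

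**Figure D1:**
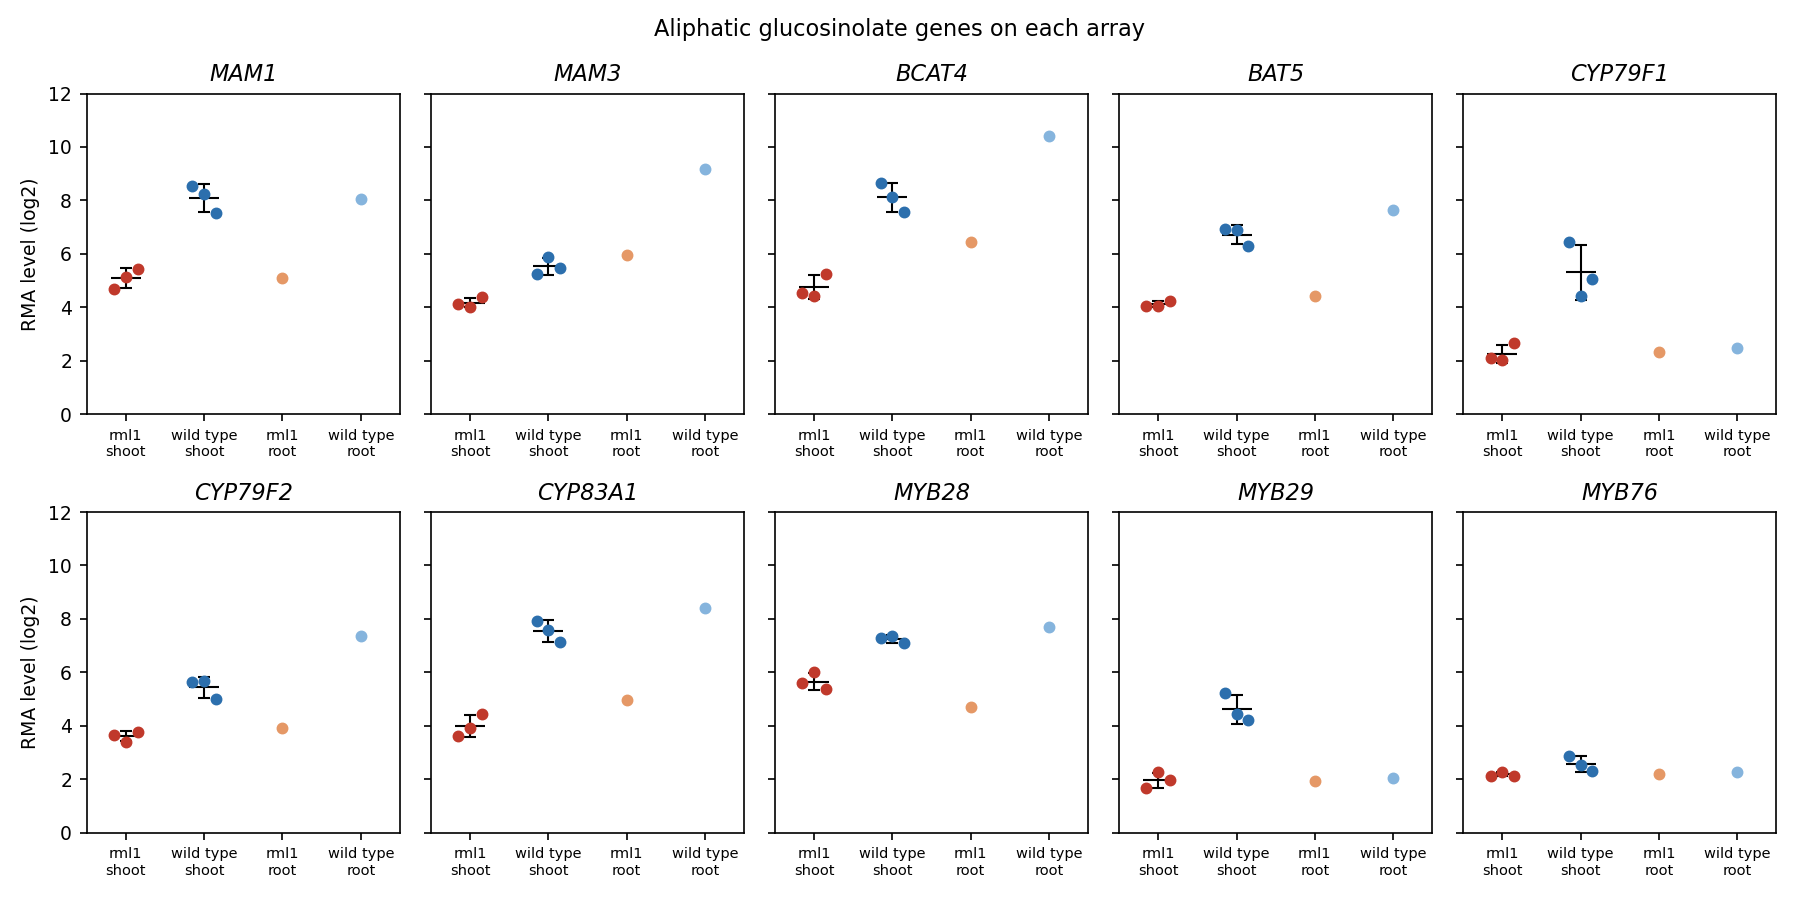
Level of each of the 10 genes (RMA, log2, vertical axis) on every array, in rml1 shoots, wild type shoots, the rml1 root and the wild type root. Points are arrays, and bars give the mean and SD of 3 shoot arrays. The rml1 shoots lie below the wild type shoots in every panel, and CYP79F1, MYB29 and MYB76 are low in both roots.

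BCAT4, the cytosolic aminotransferase that converts methionine into the 2-oxo acid entering chain elongation, stood at 4.55, 4.43 and 5.26 in rml1 shoots and at 8.66, 8.12 and 7.57 in wild type shoots. All rml1 arrays lay well below all wild type arrays, and the fall was 10.3-fold (log2 -3.37, SE 0.31, limma adjusted p = 0.000649). BAT5, the plastid envelope carrier that brings the 2-oxo acids to the elongation enzymes and takes the products back, stood at 4.07, 4.06 and 4.23 in rml1 shoots and at 6.94, 6.89 and 6.31 in wild type shoots. Its rml1 arrays were tightly grouped and its fall was 6.04-fold (log2 -2.59, SE 0.18, limma adjusted p = 0.00027).

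The methylthioalkylmalate synthases condense the 2-oxo acid with acetyl-CoA, MAM1 mainly in the early turns of the cycle and MAM3 through all of them. MAM1 stood at 4.69, 5.14 and 5.45 in rml1 shoots and at 8.54, 8.24 and 7.52 in wild type shoots, a fall of 8.02-fold (log2 -3.00, SE 0.29, limma adjusted p = 0.000738). MAM3 stood at 4.14, 4.03 and 4.37 in rml1 shoots and at 5.23, 5.88 and 5.47 in wild type shoots, a fall of 2.55-fold (log2 -1.35, SE 0.18, limma adjusted p = 0.00218). The 95% intervals of these differences, -3.69 to -2.32 for MAM1 and -1.77 to -0.93 for MAM3, do not overlap. The difference between the 2 genes was not tested. MAM1 and MAM3 are neighbours on chromosome 5 with 0 protein-coding genes between them in the gene table.

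CYP79F1 and CYP79F2 turn chain-elongated methionine into aldoximes, CYP79F1 over short and long chains and CYP79F2 over long chains. CYP79F1 stood at 2.09, 2.02 and 2.66 in rml1 shoots and at 6.43, 4.43 and 5.06 in wild type shoots. It had the widest spread among the 10 genes in wild type shoots (SD 1.02, n = 3), and its fall was 8.28-fold (log2 -3.05, SE 0.47, limma adjusted p = 0.00418). On 2 of the 3 rml1 arrays the value lay below the array's lower quartile, where RMA levels carry little information, so the size of this fold is uncertain. CYP79F2 stood at 3.64, 3.41 and 3.79 in rml1 shoots and at 5.66, 5.68 and 4.99 in wild type shoots, a fall of 3.56-fold (log2 -1.83, SE 0.20, limma adjusted p = 0.00116). The pair also lies side by side, with 0 protein-coding genes between them, and closely related neighbours can share probes. In the wild type root CYP79F2 stood at 7.34 and CYP79F1 at 2.47. Whether probes are shared here, between MAM1 and MAM3 or between MYB29 and MYB76 was not tested.

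CYP83A1, which oxidises the aldoximes in the next step, had the largest fall of the 10 genes. It stood at 3.63, 3.92 and 4.43 in rml1 shoots and at 7.92, 7.59 and 7.13 in wild type shoots. The fall was 11.7-fold (log2 -3.55, SE 0.26, limma adjusted p = 0.000305). Ordered from the largest fall over all 29920 loci, CYP83A1 stood at position 12, BCAT4 at 20, CYP79F1 at 23 and MAM1 at 31.

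The regulators fell by different amounts. MYB28 stood at 5.60, 6.0 and 5.38 in rml1 shoots and at 7.29, 7.35 and 7.09 in wild type shoots, a fall of 3.0-fold (log2 -1.58, SE 0.17, limma adjusted p = 0.00102). MYB29 stood at 1.68, 2.25 and 1.96 in rml1 shoots and at 5.24, 4.43 and 4.21 in wild type shoots, a fall of 6.32-fold (log2 -2.66, SE 0.28, limma adjusted p = 0.000943). The MYB29 level in rml1 was near or below the lower quartiles of those arrays, which leaves its fold uncertain too.

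MYB76, the neighbour of MYB29 on chromosome 5, stood at 2.14, 2.27 and 2.14 in rml1 shoots and at 2.88, 2.53 and 2.31 in wild type shoots. The difference of -0.39 (SE 0.15, 95% interval -0.74 to -0.04) did not pass the adjustment over all loci (limma adjusted p = 0.103). All 6 values lay at the low end of the scale, where a change may not be measurable. Without wild type replicate 3 the difference was -0.52 and passed (limma adjusted p = 0.0455), without wild type replicate 1 it was -0.24 (limma adjusted p = 0.183), and after renewed quantile normalization -0.27 (limma adjusted p = 0.292).

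The arrays of a group deviated together across these genes. Among wild type shoots, replicate 1 held the highest value for 7 of the 10 genes, against 36% of all loci. Replicate 3 of these shoots held the lowest value for 8 of the 10, and no share of all loci was computed for that count. Among rml1 shoots, replicate 3, the pool of 108 shoots, was highest for 7 of the 10 genes, against 34.6% of all loci. The mean of the 10 genes, each centred on its own mean over the 8 arrays, was taken per array. It was -1.43, -1.30 and -1.09 on the rml1 shoot arrays and 1.42, 1.06 and 0.71 on the wild type shoot arrays. With any 1 of the 6 arrays left out, all 9 called genes stayed lower with limma adjusted p of at most 0.0181. Those fits take each gene by itself and do not measure the shared spread.

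Markers of other tissue were measured beside these falls. Of 4 root markers (CASP1, MYB36, ESB1 and COBL9), CASP1 was higher in rml1 shoots (log2 0.57, SE 0.13, limma adjusted p = 0.0172) and the other 3 did not pass. The median of the 4 lay between 4.82 and 5.48 on the rml1 shoot arrays and between 4.48 and 4.76 on the wild type shoot arrays. Of 5 vascular markers (SUC2, APL, AHA3, IRX3 and XCP1), the phloem genes SUC2 (log2 0.45, SE 0.11) and APL (log2 0.66, SE 0.16) rose, and none fell. AHA3, IRX3 and XCP1 did not pass (log2 -0.03, -0.18 and -0.12), and the median of the 5 differences was -0.03. The median level of the 5 lay between 5.93 and 6.17 on the rml1 shoot arrays and between 5.56 and 5.93 on the wild type shoot arrays. The gene in the middle was not the same on every array, so these levels do not show a rise of the 5 together. The part of tissue makeup in the falls was not tested. In pooled organs, fewer cells that express a gene and less of its RNA in each cell cannot be told apart.

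**Figure D2:**
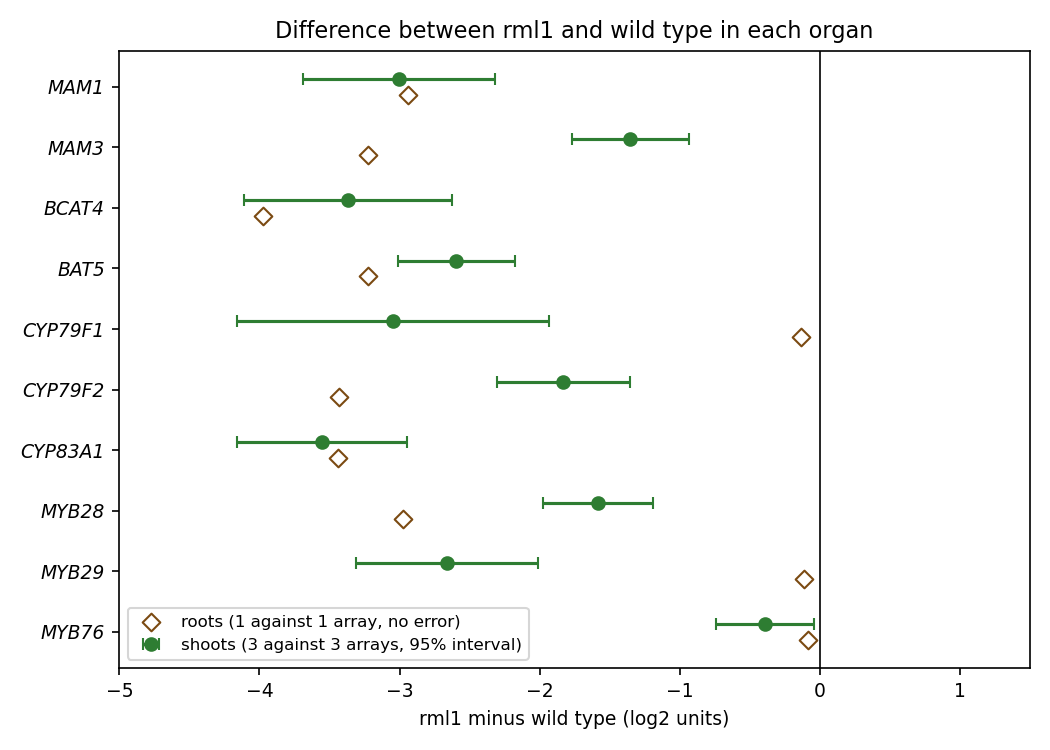
Difference between rml1 and wild type (log2 units, horizontal axis) for the 10 genes in shoots (circles, 3 against 3 arrays, with the 95% interval of the limma fit) and in roots (open diamonds, 1 array each, with no error). In roots 7 genes lie between -3.97 and -2.94, while CYP79F1, MYB29 and MYB76 lie near 0.

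In roots, 1 array stood for each genotype, so differences have no replicate check and no test. In the rml1 root 7 of the 10 genes were lower by at least 1 log2 unit, 3 were within 1 unit and none was higher by that much, while of all loci 7.33% were lower and 5.25% higher by at least 1 unit. The median difference of the 10 genes was -3.10, against -0.01 over all loci. BCAT4 stood at 6.44 in the rml1 root and 10.41 in the wild type root, a difference of -3.97, the largest of the 10. CYP83A1 stood at 4.97 and 8.41 in the rml1 and wild type roots (difference -3.44), CYP79F2 at 3.91 and 7.34 (-3.43), MAM3 at 5.96 and 9.19 (-3.23) and BAT5 at 4.42 and 7.64 (-3.22). MYB28 stood at 4.72 in the rml1 root and 7.69 in the wild type root (-2.98), and MAM1 at 5.10 in the rml1 root and 8.04 in the wild type root (-2.94).

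The 3 remaining genes were near the bottom of the scale in both roots. CYP79F1 stood at 2.34 in the rml1 root and 2.47 in the wild type root, MYB29 at 1.94 in the rml1 root and 2.06 in the wild type root, and MYB76 at 2.18 in the rml1 root and 2.26 in the wild type root. Their differences were -0.13, -0.11 and -0.08. A further fall could hardly have been seen from such levels.

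The root of rml1 also differed in tissue markers. CASP1, ESB1 and COBL9 were lower by 1 log2 unit or more in the rml1 root (differences of -1.86, -1.83 and -1.29), whereas MYB36, which stood at 6.82 in the rml1 root and 5.95 in the wild type root, was higher. The xylem gene XCP1 stood at 6.03 in the rml1 root and 8.19 in the wild type root, and the phloem genes SUC2 and APL differed by 0.51 and -0.25. RBCS1A was higher by 1.60 and GAPA1 by 1.04 in the rml1 root. The part of these differences in makeup in the values of the aliphatic genes was not tested.

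The size of the difference was not alike in both organs for every gene. For CYP83A1 it was -3.55 in shoots and -3.44 in roots, and for MAM1 -3.00 in shoots and -2.94 in roots. For MAM3 it was -1.35 in shoots and -3.23 in roots, for CYP79F2 -1.83 in shoots and -3.43 in roots, and for MYB28 -1.58 in shoots and -2.98 in roots. The root values of these 3 genes lay outside the 95% intervals of their shoot values, as did those of BAT5, CYP79F1 and MYB29. Those intervals hold for means of 3 arrays and are too narrow to judge a difference of 1 array against 1. CYP79F1 and MYB29 were also near the bottom of the scale in both roots. With 1 root array per genotype the difference between organs was not tested.

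**Figure D3:**
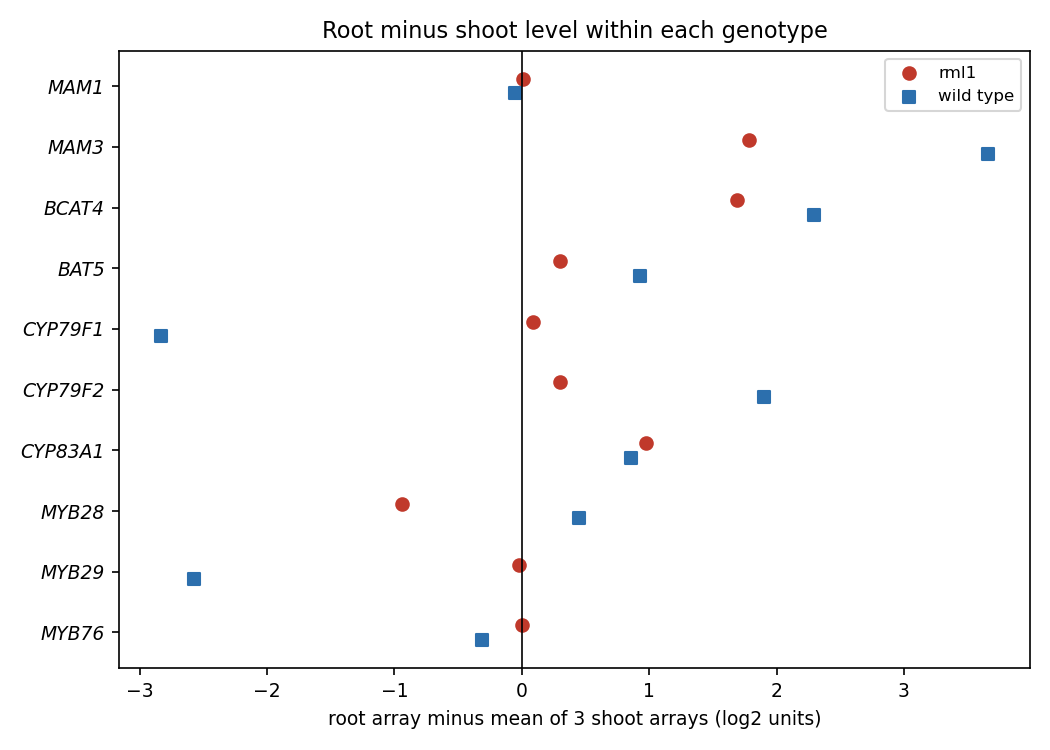
Level in the root array minus the mean of the 3 shoot arrays (log2 units, horizontal axis) for each of the 10 genes in rml1 (circles) and in the wild type (squares). MAM3, BCAT4 and CYP79F2 lie to the right in the wild type and CYP79F1 and MYB29 to the left, while the rml1 values span -0.94 to 1.79.

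Related genes had different organ patterns. In the wild type, CYP79F2 was higher in the root than in the mean of shoots by 1.90, whereas CYP79F1 was at -2.83 on the same difference. MAM3 differed by 3.66 between wild type root and shoots and MAM1 by -0.06, with the root value of MAM1 inside the range of its 3 shoot values. MYB28 differed by 0.45 between wild type root and shoots, MYB29 by -2.57 and MYB76 by -0.31. In all, the wild type root lay above all 3 wild type shoot arrays for 6 of the 10 genes (41.2% of all loci) and below all 3 for 3 genes (35.4% of all loci).

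In rml1 the same differences were smaller, apart from those of CYP83A1 and MYB28. MAM3 was still higher in the rml1 root than in rml1 shoots by 1.79 and BCAT4 by 1.69. CYP83A1 differed by 0.98, CYP79F2 and BAT5 by 0.30 each, and CYP79F1 by 0.08. For MYB28 the rml1 root lay below all 3 rml1 shoot arrays (difference -0.94). The rml1 root lay above all 3 rml1 shoot arrays for 5 of the 10 genes (41.2% of all loci), namely MAM3, BCAT4, BAT5, CYP79F2 and CYP83A1.

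The order of the 4 groups followed from these levels. For BCAT4, BAT5, CYP79F2 and CYP83A1 it was, from low to high, rml1 shoots, rml1 root, wild type shoots and wild type root. For MAM3 the rml1 root (5.96) stood just above the wild type shoots (5.23 to 5.88), by less than the SD of those shoots (0.33), and the wild type root (9.19) was far above both. For MAM1 the rml1 root (5.10) lay within the range of rml1 shoots, and the wild type root (8.04) within that of wild type shoots. MYB28 was lowest in the rml1 root, followed by rml1 shoots, wild type shoots and the wild type root. CYP79F1 and MYB29 were highest in wild type shoots. Their values in rml1 shoots and both roots lay together, between 2.02 and 2.66 for CYP79F1 and between 1.68 and 2.25 for MYB29. For MYB76 the rml1 root (2.18) and the wild type root (2.26) were within the range of rml1 shoots.

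**Figure D4:**
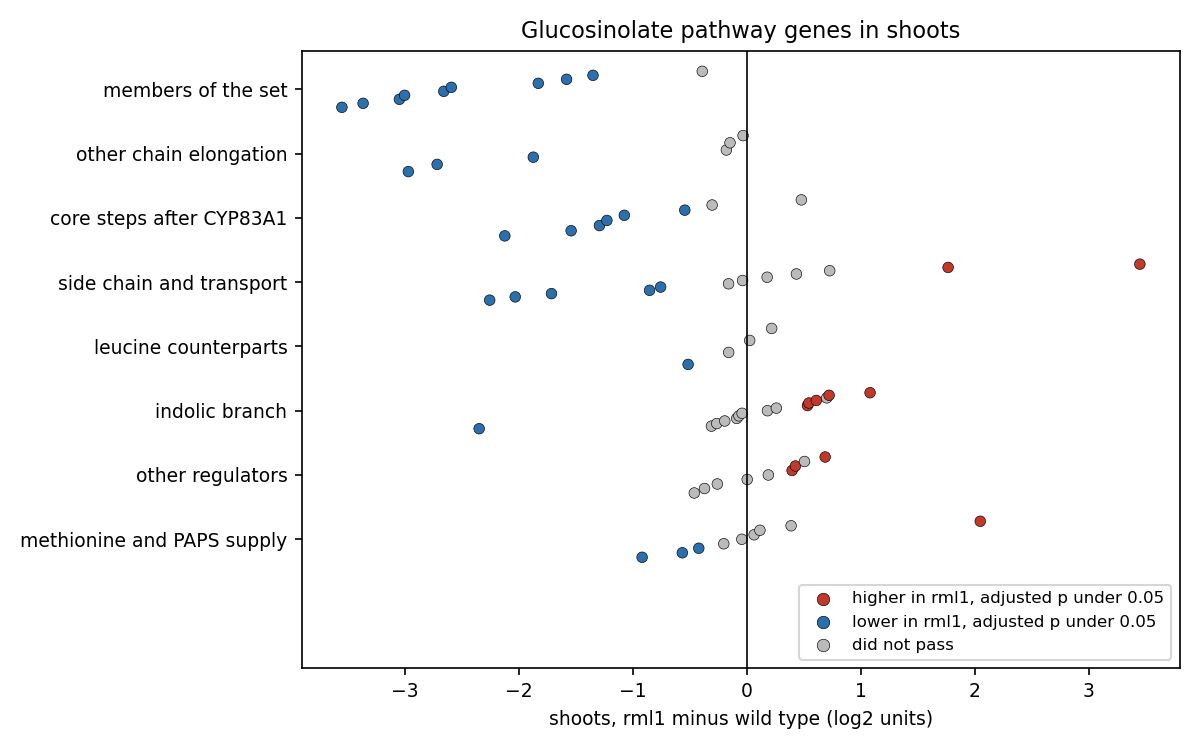
Difference between rml1 and wild type shoots (log2 units, horizontal axis) for the 10 genes and for 7 further lists of glucosinolate genes, 1 point per gene. Colours give the limma call at an adjusted p under 0.05. The side chain and transport list holds 5 lower and 2 higher calls, and the 2 largest rises are FMOGS-OX4 there and MGL in the supply list.

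The rest of the aliphatic pathway was followed through 26 further genes, of which 14 fell in rml1 shoots, 2 rose and 10 did not pass. By the same test 10.6% of all loci fell and 13.3% rose. Their median difference was -0.65. Among the 6 other genes of chain elongation, 3 fell. These were IPMI1 (log2 -2.97, SE 0.28) and IPMI2 (log2 -2.72, SE 0.19), small subunits of the isomerase, and the dehydrogenase IMD1 (log2 -1.87, SE 0.27), with limma adjusted p of 0.000658, 0.000287 and 0.00303. BCAT3 (log2 -0.15, SE 0.11), the large subunit IIL1 (log2 -0.18, SE 0.15) and IMD3 (log2 -0.03, SE 0.25) did not pass. In the rml1 root IPMI1, IPMI2 and IMD1 differed from the wild type root by -3.56, -3.38 and -2.43.

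The leucine pathway uses related enzymes for the same reactions. Of its 4 listed genes only IPMS2, an isopropylmalate synthase, passed, with a fall of 0.52 (SE 0.09, limma adjusted p = 0.00549). Of all loci, 23.9% were called in either direction. Its relative IPMS1 (log2 -0.16, SE 0.12), the isomerase subunit IPMI SSU1 (log2 0.22, SE 0.09) and the dehydrogenase IMD2 (log2 0.02, SE 0.09) did not pass. Isomerase subunits thus differed by -2.72 for IPMI2 of the methionine cycle and by 0.22 for IPMI SSU1, a contrast between genes that was not tested.

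Of 8 genes of the core steps after CYP83A1, 6 fell (10.6% of all loci), none rose (13.3% of all loci) and 2 did not pass. GSTF11 and GSTU20, glutathione transferases linked to the step that adds glutathione, fell (log2 -2.12, SE 0.20, limma adjusted p = 0.000679, and log2 -1.54, SE 0.16, limma adjusted p = 0.000949). GGP1, the peptidase that trims the glutathione conjugate, did not pass (log2 0.48, SE 0.15, limma adjusted p = 0.0615). It passed as higher in 4 alternatives, among them the fit without wild type replicate 1 (log2 0.63, limma adjusted p = 0.0147). SUR1, the C-S lyase, which also serves the tryptophan branch, fell by 0.55 (SE 0.14, limma adjusted p = 0.0277), a call lost without any array other than wild type replicate 3 (limma adjusted p 0.0584 to 0.0869). UGT74B1, the glucosyltransferase shared by the branches, did not pass (log2 -0.31, SE 0.19). The sulfotransferases SOT17 (log2 -1.08, SE 0.22) and SOT18 (log2 -1.29, SE 0.19) fell, and AT2G31790, which has no symbol in the gene table, fell by 1.23 (SE 0.14).

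The side chain and transport genes moved in both directions. Of 12 genes, 5 fell (10.6% of all loci), 2 rose (13.3% of all loci) and 5 did not pass. The flavin monooxygenases FMOGS-OX1 and FMOGS-OX3, which oxidise the sulfur of the side chain, fell (log2 -1.72, SE 0.21, and log2 -2.26, SE 0.28). Their relative FMOGS-OX4 rose 10.9-fold (log2 3.45, SE 0.24, limma adjusted p = 0.000287). It stood at 8.14, 7.40 and 8.21 in rml1 shoots and at 4.16, 4.73 and 4.53 in wild type shoots. FMOGS-OX2 (log2 0.73, SE 0.24) and FMOGS-OX5 (log2 0.18, SE 0.11) did not pass, though FMOGS-OX2 did without wild type replicate 1 (log2 0.97, limma adjusted p = 0.0149). AOP2, a transcribed pseudogene of Columbia according to the gene table, fell (log2 -2.03, SE 0.22), and AT2G25450 fell by 0.85 (SE 0.13). AOP2 stood at 1.87, 2.43 and 2.21 in rml1 shoots, near the lower quartiles of those arrays, so the size of its difference is uncertain too.

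GTR2, a plasma membrane importer of glucosinolates, stood at 7.63, 7.43 and 7.50 in rml1 shoots and at 5.54, 6.17 and 5.56 in wild type shoots. It rose 3.40-fold (log2 1.77, SE 0.18, limma adjusted p = 0.000834). Its relative GTR1 did not pass (log2 -0.04, SE 0.12), and NRT1.9 fell by 0.76 (SE 0.10). In the rml1 root GTR2 was higher than in the wild type root by 1.02, GTR1 by 0.76 and FMOGS-OX4 by 0.98, while NRT1.9 differed by -1.35.

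The branch from tryptophan was followed through 15 genes in shoots. Of these, 5 rose (CYP79B2, CYP83B1, MYB51, GSTF10 and CYP81F2, by 0.53 to 1.08), only CYP81F4 fell (log2 -2.35, SE 0.32, limma adjusted p = 0.00248) and 9 did not pass, with a median of 0.18. Of all loci, 13.3% rose and 10.6% fell. The median was -2.63 for the 10 aliphatic genes and -0.65 for the 26 further ones, and the difference between the lists was not tested. MYB34 (log2 0.18, SE 0.09) and MYB122 (log2 -0.09, SE 0.11) did not pass in shoots. In the rml1 root 7 of the 15 were lower by at least 1 log2 unit (7.33% of all loci) and 2 were higher (5.25%). CYP79B3 stood at 4.49 in the rml1 root and 7.53 in the wild type root. Median differences in roots were -0.91 for these 15 genes, -0.71 for the 26 further aliphatic genes and -3.10 for the 10. Of the 26, 10 were lower by at least 1 log2 unit in the rml1 root.

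The 9 other regulators linked to these genes held 3 genes that rose (13.3% of all loci), none that fell (10.6% of all loci) and 6 that did not pass. At an unadjusted p under 0.05, MYC4 and IQD1 were lower as well, which made 5 of the 9, against 36.1% of all loci in either direction. MYC2, a bHLH factor of jasmonate signalling that acts with the MYB factors, rose by 0.69 (SE 0.11, limma adjusted p = 0.00407). MYC3 rose by 0.43 (SE 0.12) and MED25, a Mediator subunit, by 0.40 (SE 0.10), and both calls were lost when replicate 1 or 3 of rml1, or replicate 2 or 3 of the wild type, was left out (limma adjusted p up to 0.109 for MYC3 and 0.0873 for MED25). The MYC3 call was also lost after renewed quantile normalization (log2 0.31, limma adjusted p = 0.0807). MYC4 had a difference of -0.46 (SE 0.14, limma adjusted p = 0.0516), and it passed as lower after renewed quantile normalization (log2 -0.53, limma adjusted p = 0.0311). EIL3, the regulator of sulfur limitation (log2 0.19, SE 0.13), and SDI1, a repressor of glucosinolate synthesis under low sulfur (log2 0.51, SE 0.50), did not pass.

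Of 9 genes that supply methionine and activated sulfate, 3 fell (10.6% of all loci), 1 rose (13.3% of all loci) and 5 did not pass. MGL, methionine gamma-lyase, which breaks methionine down, rose 4.13-fold (log2 2.05, SE 0.15, limma adjusted p = 0.000339) and differed by 1.90 in roots. MS2, a methionine synthase, fell by 0.92 (SE 0.11, limma adjusted p = 0.00156). APK1 and APK2, the kinases that make the sulfate donor of the sulfotransferases, fell (log2 -0.42, SE 0.12, limma adjusted p = 0.0423, and log2 -0.57, SE 0.17, limma adjusted p = 0.0474). The APK1 and APK2 calls were lost without any array other than wild type replicate 3 (limma adjusted p 0.0699 to 0.126 for APK1 and 0.0738 to 0.121 for APK2), and after median centring (limma adjusted p = 0.0535 and 0.0557). In roots APK1 and APK2 differed by -1.28 and -1.93. CGS1, cystathionine gamma-synthase, did not pass (log2 -0.05, SE 0.10).

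The loci whose pattern was most like that of the 10 genes were found by the root mean square, over the 8 arrays, of the difference between a locus and the mean of the 10 genes, each centred on its own mean. The nearest was GSTF11 (0.26 log2 units), followed by DJ1F (0.29), SADHU3-2 (0.33), AT1G72140 (0.34), AT5G26200 (0.35), IMD1 (0.38), IPMI2 (0.39), ACHT5 (0.41), PP2-A14 (0.41) and AGP41 (0.42). Of these 10, 3 are in the aliphatic lists above, and the measure uses the same 8 arrays, so it describes likeness and tests nothing. DJ1F stood at 4.98, 5.39 and 5.08 in rml1 shoots and at 7.71, 7.26 and 6.93 in wild type shoots, and at 4.95 in the rml1 root and 8.25 in the wild type root. Among the 10 genes themselves this distance from their mean ranged from 0.27 for BAT5 and 0.41 for MAM1 to 1.09 for CYP79F1 and 1.14 for MAM3.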

How the data were processed

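The authors deposited a table of RMA values on the log2 scale, per the submitters' processing notes, for Affymetrix Agronomics tiling arrays with 1 biotin-labelled sample each. Which RMA version, genome build and gene assignment of probes were used is not stated in the labels, and no positions are printed. RMA compresses differences at the low end, and no detection call was used. The table held 30237 entries for 29920 loci, and entries of a locus were averaged. Symbols and gene order came from a RefSeq gene table (TAIR10.1), and lists were matched by locus code. One root marker is not reported here and was left out of the marker medians.

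A linear model with genotype alone was fitted to the 6 shoot arrays (limma 3.58.1, lmFit with eBayes, R 4.3.3). Two-sided p-values were adjusted by Benjamini-Hochberg over 29920 loci, and a call needs an adjusted p under 0.05. Errors are SDs of arrays or standard errors, intervals are 95% intervals of the fit without adjustment, and folds are 2 to the power of the difference. The script was tested on simulated data. Roots have 1 array per genotype and were described without a test, with 1 log2 unit as the mark. Precision is limited by how few arrays there are, so a gene that did not pass may still have changed. The 10 genes, the pathway lists and the tests were chosen with earlier results of these data known.

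Named genes were all 10 members, every called gene of a list with at most 6 calls (otherwise the 4 largest), further list genes needed for a small count, and the 10 nearest patterns. The alternatives were quantile normalization or median centring, weights per array, a blocked fit by replicate number, eBayes with trend and robust settings, omission of each array, a filter on low loci, stricter thresholds and single table entries. Python 3.11.15 with matplotlib 3.10.9 made the figures.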

Additional observations from a re-analysis of the deposited data

Results flagged for a closer look

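Of 39 called genes among the 10 members and the pathway lists, 6 had shoot and root differences of opposite sign. The root difference was not required to reach 1 log2 unit, and no share of all called loci stands beside this count. In these 6 genes all rml1 shoot arrays lay on one side of all wild type shoot arrays, as for 42.1% of all loci. Such a split is likely in any gene picked by its shoot call, so it adds no support. None of the 10 aliphatic genes was among the 6. FMOGS-OX3 differed by -2.26 in shoots and by only 0.12 in roots, less than the SD of its wild type shoots (0.60). AT2G25450 differed by -0.85 in shoots and 1.03 in roots, and IPMS2 by -0.52 in shoots and 0.62 in roots. CYP83B1 differed by 0.53 in shoots and -1.11 in roots, GSTF10 by 0.54 in shoots and -0.49 in roots, and MYC2 by 0.69 in shoots and -1.55 in roots. With 1 root array per genotype the difference between organs was not tested.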

How the results depend on the processing

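The 9 aliphatic genes called in shoots stayed called and lower under renormalization, trend and robust options, array weights, single entries, an adjusted p under 0.01 and each array left out (9 to 10 of the 10 genes). The filter on low loci kept 7 of the 10, all called, and dropped CYP79F1, MYB29 and MYB76. Tested by limma's treat against a change of 1 log2 unit, 5 passed (MAM1, BCAT4, BAT5, CYP83A1 and MYB29), with 3 pathway genes lower and 2 higher, and 126 loci lower and 181 higher. With 1 array left out, MYB76 ranged from -0.52 to -0.24, 1982 to 2931 loci were lower (1982 without rml1 replicate 3) and 2526 to 3549 higher (2526 without rml1 replicate 3). At an adjusted p under 0.01, 1520 loci were lower and 2063 higher. The replicate numbers do not pair the arrays: same-numbered arrays correlated at -0.03, -0.00 and -0.10 in their deviations from the group means. With the replicate block 9 of the 10 genes, 17 pathway genes and 2338 loci were lower, and 10 pathway genes and 2851 loci higher. The block ended the calls of MYC3, MED25, APK1 and APK2 (limma adjusted p of 0.0821, 0.051, 0.0969 and 0.0778). Of 30 called pathway genes, 5 (SUR1, MYC3, MED25, APK1 and APK2) lost the call in some alternative. Of 33 that did not pass, 7 (GGP1, FMOGS-OX2, IGMT2, MYC4, AT1G04770, APK3 and APK4) passed in at least 1. In roots 7 genes were lower under each normalization and at marks of 0.5 to 2 log2 units. No shoot call and no rml1 minus wild type difference of the 10 genes changed direction in any alternative run. The root minus shoot differences near 0 in rml1 did for MAM1, MYB76 and CYP79F1 under renormalization of the 8 arrays (lowest values -0.09, -0.09 and -0.01). Signal over background limits the folds of CYP79F1, MYB29, MYB76 and AOP2.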
